A study of Mus musculus with 4 samples.

Results

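The genes described are Tal1, Lyl1, Lmo2, Gata2, Gata1, Hhex and Runx1, 7 transcription regulators of blood and endothelial cells, taken by name from the GENCODE annotation of mouse mm10, in which 21728 protein-coding genes were considered. Tal1, Lyl1, Lmo2, Gata2 and Hhex are the 5 members known from blood vessels as well as blood, and are called vascular members here, whereas Gata1 and Runx1 are the 2 members known in the adult mainly from blood. ATAC-Seq, in which the transposase Tn5 cuts and tags open chromatin, was performed on heart nuclei of C57BL/6 male mice aged 8 to 12 weeks with the genotype NuTRAP/Cdh5-Cre. Nuclei were sorted into GFP+ (endothelial) and GFP- (non-endothelial) populations, with 2 replicates of each and 100 to 50000 nuclei per reaction. Both populations carried the same alleles and were separated by the sort gate alone. The NuTRAP allele tags nuclei with GFP after Cre has acted, and Cre was driven by the promoter of Cdh5, the gene of VE-cadherin, so that GFP+ nuclei are those of cells that expressed Cdh5 or descend from such cells, and GFP- nuclei are a mixture of all other cells of the heart.

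The data were 1 list of open chromatin peaks per population, each called on both replicates together, so that no value below has a replicate error and no test between populations was possible. The GFP- list held 78912 peaks over 52.1 Mb and the GFP+ list 65008 peaks over 41.8 Mb. Because each list was called on its own, a peak is described by its rank, the percentile of its area (the significance of the signal summed along the peak) within its own list, from 0 for the smallest to 100 for the largest. A peak is called shared if it overlaps a peak of the other list by at least 1 bp, and found only in its list otherwise. By this rule, 30.3% of all GFP- peaks and 13.4% of all GFP+ peaks were found only in their list. In such mixed populations, a region open in fewer nuclei and a region less open in each nucleus cannot be told apart.

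Tal1 (also called Scl) and its paralog Lyl1 are basic helix-loop-helix proteins that pair with E proteins and bind E-boxes, Gata1 and Gata2 bind GATA sequences, and Lmo2 is a LIM-only protein that binds no DNA itself but bridges these factors through Ldb1. Runx1 joins them in blood stem and progenitor cells, and in the embryo it is needed for the emergence of blood from hemogenic endothelium. Hhex is a homeobox protein of early blood and endothelial progenitors. Gata1 directs the red cell, megakaryocyte, eosinophil and mast cell lineages.

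The labels of the populations were first compared with marker genes. A start peak is a peak that overlaps the 250 bp on either side of an annotated transcript start. A gene without a start peak in a list counts as rank 0 there. Of 9 endothelial markers, 5 had a start peak in the GFP- list and 9 in the GFP+ list. The median rank over all 9 was 18.0 and 85.3, with Pecam1, Emcn, Cldn5 and Erg counted as 0 in GFP-. In GFP+, 7 ranked over 20 points higher whereas Tek ranked lower (81.1 in GFP- and 54.1 in GFP+). Start peaks of the 5 fibroblast markers were 5 in GFP- and 2 in GFP+, and those of the 4 pericyte markers were 4 and 2. All 5 cardiomyocyte markers had start peaks in both lists, with median ranks of 99.8 in GFP- and 94.3 in GFP+. Of 10 leukocyte markers, Kit alone had a start peak, in both lists, while Ptprc (CD45), Csf1r, Adgre1, Itgam, Cx3cr1, Lyz2, Cd3e, Cd79a and Fcer1g had none in either. Among erythroid and megakaryocyte markers, Epor, Itga2b and Pf4 had a start peak in both lists, and Klf1, Hbb-bt, Gp9 and Gp1ba had none. Start peaks of endothelial markers in GFP- and of cardiomyocyte markers in GFP+ were thus present, and their part in the values below was not tested.

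Of the 7 members, 6 had a start peak in the GFP- list and the same 6 in the GFP+ list, against 61.8% and 59.8% of all protein-coding genes. Thus 6 had one in both lists and Gata1 had one in neither, where the shares over all genes were 58.8% and 37.3%. With the 5′ end of each gene as its only start, 5 members had a start peak in GFP- and 4 in GFP+. The best start peaks of Tal1, Lyl1, Gata2 and Hhex ranked 12.1 to 15.2 points higher in GFP+ than in GFP-, that of Lmo2 had the same rank in both lists, and that of Runx1 ranked 3.89 points lower in GFP+. Of the 6 members with a start peak, 4 therefore ranked higher in GFP+, and these 4 did so by over 10 points. Among the 13626 protein-coding genes with a start peak in either list, 28.6% ranked higher in GFP+, 3.49% did so by over 10 points, and the median difference was -0.814 points. The median over the 5 vascular members was 14.0 points.

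**Figure D1:**
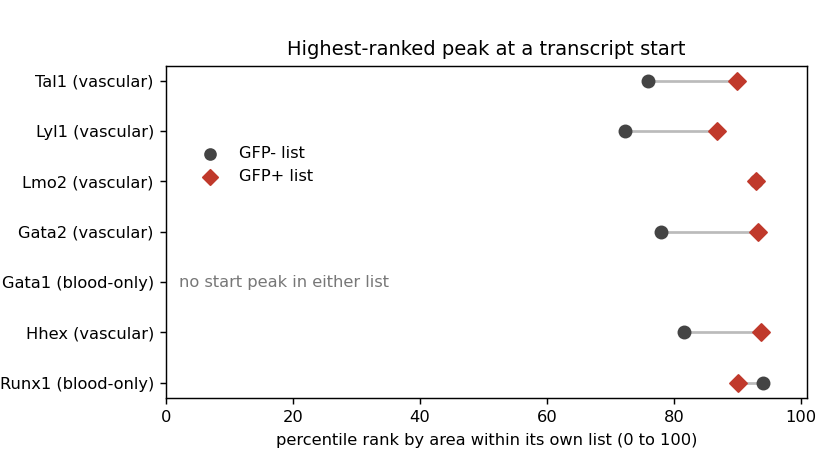
Rank of the highest-ranked start peak of each member (x axis, percentile by area within its own list, 0 to 100) in the GFP- list (grey circles) and the GFP+ list (red diamonds), 1 pooled list each. The red diamonds lie to the right for Tal1, Lyl1, Gata2 and Hhex, coincide with the circle for Lmo2 at 93.0, and lie to the left for Runx1. The label blood-only marks Gata1 and Runx1, known in the adult mainly from blood, and is no result of these lists.

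The members differed in how many peaks were assigned to them. Start peaks, peaks with their summit in the gene, and peaks with their summit within 100 kb of the gene and nearer to it than to any other protein-coding gene were counted. In the GFP- and GFP+ lists respectively, Tal1 had 3 and 6 such peaks, Lyl1 2 and 3, Lmo2 12 and 8, Gata2 6 and 9, Hhex 1 and 3, Runx1 11 and 5, and Gata1 none. The median protein-coding gene had 2 in GFP- and 1 in GFP+. Tal1, Lyl1, Gata2 and Hhex had peaks found only in GFP+ and none found only in GFP-, Runx1 had the opposite, and Lmo2 had both kinds. At least 1 peak found only in GFP+ was assigned to 20.9% of protein-coding genes. Having none, as in Runx1, was therefore the more common state, and most genes likewise had no peak found only in GFP-.

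**Figure D2:**
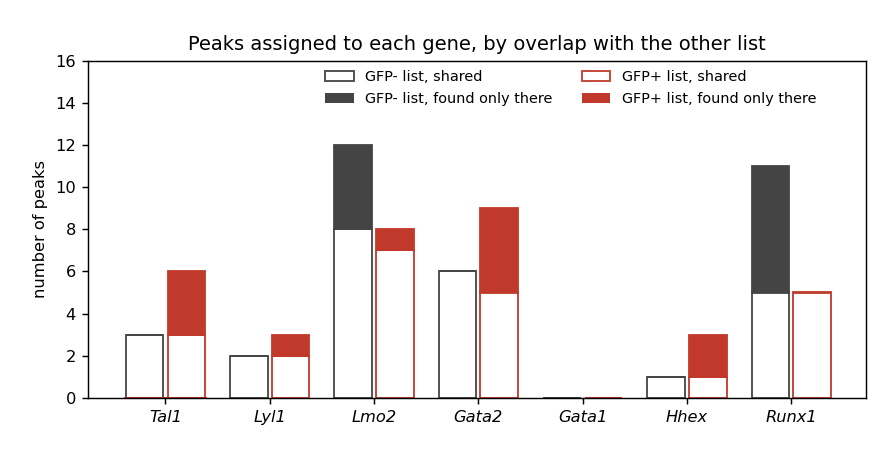
Number of peaks assigned to each member (y axis) in the GFP- list (grey outline) and the GFP+ list (red outline). Filled parts of the bars are peaks found only in that list, which number 3 of 6 for Tal1 and 4 of 9 for Gata2 in GFP+, and 4 of 12 for Lmo2 and 6 of 11 for Runx1 in GFP-.

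**Figure D3:**
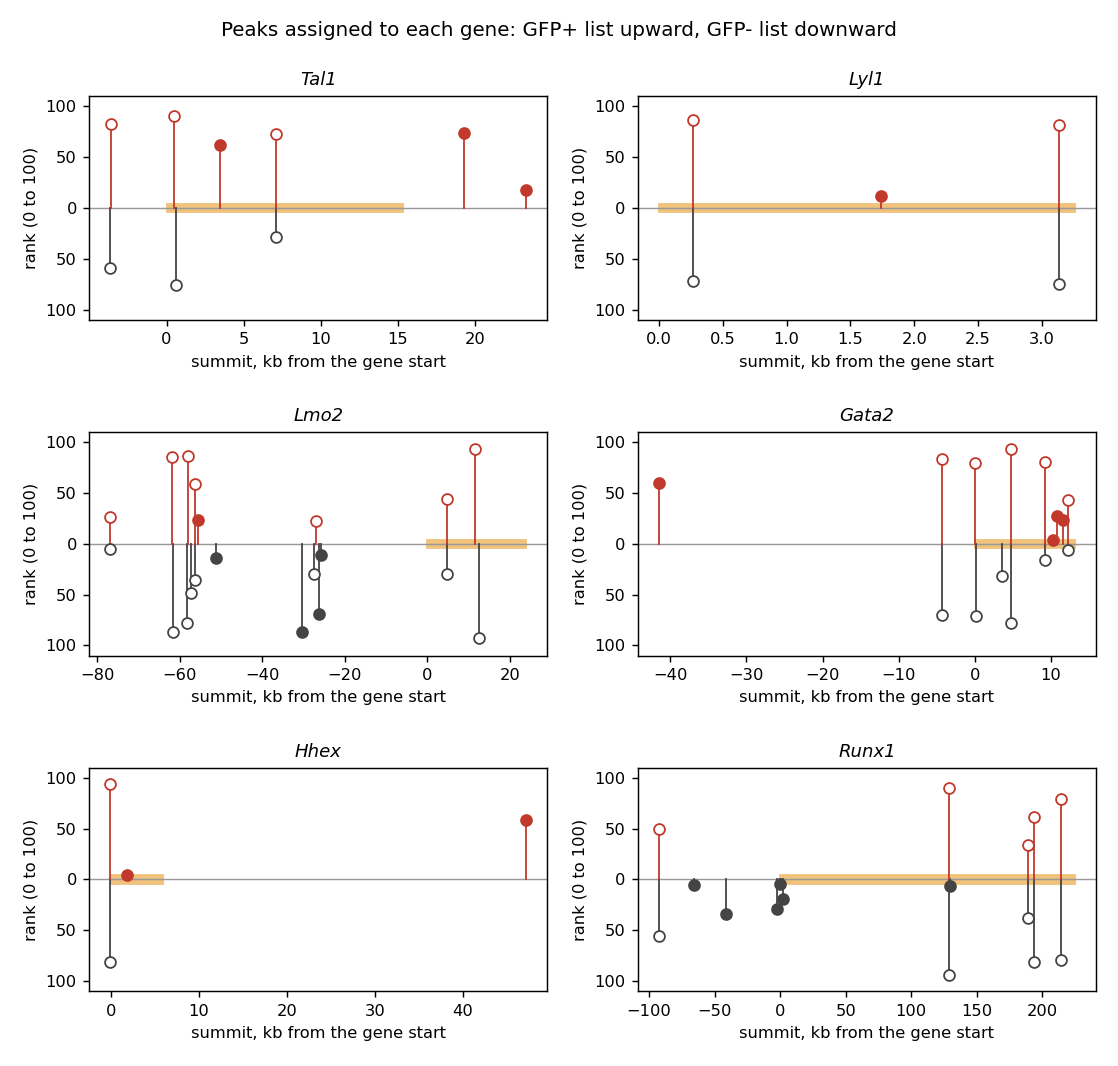
Peaks of the 6 members that have any, by the distance of the summit from the 5′ end of the gene (x axis, kb, negative upstream, the scale differs between panels) and rank (y axis, 0 to 100, GFP+ list upward in red, GFP- list downward in grey). Filled points are found only in that list, open points are shared, and the orange bar is the gene. Tall filled points stand downstream of Tal1 in GFP+ (rank 73.6) and upstream of Lmo2 in GFP- (rank 87.1).

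Tal1 (chr4:115056426-115071755, + strand) had 4 annotated starts, of which 2 lay under a GFP- peak and 4 under a GFP+ peak. The first 2 starts lay in a peak of rank 76.0 and 1317 bp in GFP- and of rank 90.0 and 2380 bp in GFP+. The GFP+ peak also reached the start at 1.39 kb, and the start at 3.08 kb lay in a peak of 1166 bp found only in GFP+, with rank 61.3. The other shared peaks were also higher and longer in GFP+. The one 3.61 kb upstream of the gene had rank 59.0 and 516 bp in GFP- and rank 82.4 and 1107 bp in GFP+, and an exonic one 7.07 kb into the gene had rank 29.0 and 510 bp in GFP- and rank 72.8 and 1199 bp in GFP+. Thus all 3 shared peaks ranked higher in GFP+, by 14.0 to 43.7 points. At least 3 peaks found only in GFP+ were assigned to 3.67% of protein-coding genes.

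Among the Tal1 peaks found only in GFP+, the highest rank belonged to a peak of 957 bp with its summit 19.3 kb from the gene start, beyond the 3′ end of the gene, which had rank 73.6. A weaker one followed at 23.3 kb (rank 17.4, 397 bp). No GFP- peak overlapped either of them.

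Beyond the peaks assigned to Tal1, its 100 kb flanks held 6 GFP- and 7 GFP+ peaks that lay nearer to another gene. At 29.3, 39.7 and 45.4 kb from the Tal1 start, nearest to Pdzk1ip1 or Cyp4x1, shared peaks had ranks of 39.8, 24.9 and 49.7 in GFP- and of 51.3, 53.7 and 59.7 in GFP+. All 3 ranked higher in GFP+. A peak 56.4 kb upstream, nearest to Stil, ranked 91.3 in GFP- and 90.7 in GFP+.

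Lyl1 (chr8:84701457-84704715, + strand), the paralog of Tal1, is annotated within the body of Nfix, so its peaks may belong to either gene. Its only start lay in a peak of rank 72.3 and 1478 bp in GFP- and of rank 86.8 and 1481 bp in GFP+, a difference in rank with almost the same length. A second shared peak at the 3′ end of the gene, 3.13 kb from its start, had rank 74.5 in GFP- and 81.3 in GFP+. An intronic peak of 230 bp at 1.74 kb was found only in GFP+ and had rank 11.3. At least 1 peak found only in GFP+ was assigned to 20.9% of protein-coding genes, so that this count for Lyl1 is common. Nearer to other genes, its 100 kb flanks held 38 GFP- peaks, of which 9 were found only in GFP-, and 33 GFP+ peaks, of which 3 were found only in GFP+. Neither count exceeded the share over all peaks of its list, 30.3% in GFP- and 13.4% in GFP+. The 9 found only in GFP- were all nearest to Nfix, among them a peak of 1821 bp and rank 86.9 at 11.2 kb from the Lyl1 start.

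Gata2 (chr6:88193891-88207032, + strand) had 4 starts, of which 2 lay under a GFP- peak and 3 under a GFP+ peak. Its upstream first exon is known mainly from blood progenitors and neurons, and the downstream one from Gata2-expressing tissues in general. The upstream start had rank 71.0 and 1453 bp in GFP- and rank 79.6 and 1534 bp in GFP+. The downstream start, 4.44 kb into the gene, had rank 78.0 and 1078 bp in GFP- and rank 93.2 and 3676 bp in GFP+. The wide GFP+ peak also covered a separate intronic GFP- peak of 500 bp and rank 31.3. Because the area is summed along the peak, this difference depended on the length: ranked by area per bp, the best start peak of Gata2 ranked lower in GFP+, with a difference of -19.6 points. By the p-value at the summit it ranked 9.91 points higher in GFP+.

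The shared Gata2 peak with the largest difference in rank lay in the intron about 9.17 kb from the gene start, with rank 15.8 and 329 bp in GFP- and rank 80.1 and 1412 bp in GFP+. It was 64.4 points higher in GFP+, and 74.8 against 10.5 when ranked by the p-value at the summit. The GFP- summit lay at 9.26 kb and the GFP+ summit at 9.17 kb. Within both peaks lay an E-box followed by a GATA sequence, at chr6:88203185-88203203 on the + strand. An intronic Gata2 enhancer that carries such a pair is known to be needed in mouse embryos for the emergence of blood stem cells and for intact vessels. The 200 bp around the GFP- summit, chr6:88203053-88203252 (GRCm38, + strand), are shown because they hold this pair, with the E-box and the GATA word in capitals.
Gata2 +9.26 kb, shared: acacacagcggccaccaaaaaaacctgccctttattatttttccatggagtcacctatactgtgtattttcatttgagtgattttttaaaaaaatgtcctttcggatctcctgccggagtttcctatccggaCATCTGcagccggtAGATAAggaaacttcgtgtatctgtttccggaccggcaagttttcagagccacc

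Upstream of Gata2, a shared peak 4.25 kb from the start had rank 70.3 and 719 bp in GFP- and rank 82.8 and 1602 bp in GFP+. A shared peak at the 3′ end, 12.2 kb from the start, had rank 5.79 in GFP- and 42.9 in GFP+. All 5 shared GFP+ peaks of Gata2 thus ranked higher in GFP+, by 8.65 to 64.4 points. Of its 4 peaks found only in GFP+, 3 were short ones between 10.2 and 11.6 kb with ranks of 3.48 to 26.9, and the one of the highest rank (59.5, 429 bp) lay 41.5 kb upstream. At least 4 such peaks were assigned to 1.97% of protein-coding genes. The 200 bp around the summit of the distal one, chr6:88152312-88152511 (GRCm38, + strand), are shown because no GFP- peak overlaps them and because they held an ETS word (CAGGAAG) 3 times, written here as its reverse complement in capitals.
Gata2 -41.5 kb, GFP+ only: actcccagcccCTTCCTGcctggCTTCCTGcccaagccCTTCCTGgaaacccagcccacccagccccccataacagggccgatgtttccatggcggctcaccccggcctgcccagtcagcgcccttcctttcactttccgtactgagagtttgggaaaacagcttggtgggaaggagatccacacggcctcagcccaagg

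Nearer to other genes, the 100 kb flanks of Gata2 held 10 GFP- peaks, none of them found only there, and 16 GFP+ peaks, of which 6 were found only in GFP+. Over all peaks, the shares found only in their list were 30.3% in GFP- and 13.4% in GFP+. The 6 found only in GFP+ included peaks nearest to Rpn1 at 77.2 kb upstream (rank 35.4) and 46.0 kb upstream (rank 57.6). The other 4 had ranks of 4.56 to 17.5. Which gene such a distal peak acts on was not measured.

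Hhex (chr19:37434810-37440731, + strand) had a start peak at its first start of rank 81.6 and 2137 bp in GFP- and of rank 93.8 and 2328 bp in GFP+. In both lists that peak also lay at an annotated start of Gm38345. The second Hhex start, 1.93 kb into the gene, lay in a peak of 263 bp found only in GFP+, with rank 4.81. The only other peak assigned to Hhex lay 47.2 kb from the start, beyond the 3′ end, and was found only in GFP+ with rank 58.4 and 394 bp. At least 2 peaks found only in GFP+ were assigned to 7.56% of protein-coding genes. In the 200 bp around this distal summit, chr19:37481875-37482074 (GRCm38, + strand), shown because the GFP- list has no peak there, capitals mark 2 ETS words and 1 E-box word.
Hhex +47.2 kb, GFP+ only: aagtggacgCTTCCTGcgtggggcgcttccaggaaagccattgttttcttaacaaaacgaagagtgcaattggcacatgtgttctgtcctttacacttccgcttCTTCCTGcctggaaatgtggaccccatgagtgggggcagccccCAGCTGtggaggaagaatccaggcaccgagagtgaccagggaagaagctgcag
Further out and nearer to Exoc6, 3 more peaks were found only in GFP+, of which the one 106 kb from the Hhex start had rank 73.2.

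Lmo2 (chr2:103957986-103981878, + strand) was the vascular member without a higher start rank in GFP+. Its upstream starts, at 0 and 9 bp, had no peak in either list, and the 6 starts between 11.5 and 13.2 kb, which include those of the proximal promoter, lay in 1 broad peak of 2173 bp in GFP- and 2176 bp in GFP+. The rank of that peak was 93.0 in both lists, with a difference of -0.0722 points. Its summit also lay within the body of 4931422A03Rik in both lists, so that the peak may belong to either gene. An intronic peak ranked higher in GFP+, with rank 29.4 at 4.65 kb in GFP- and rank 43.9 at 4.78 kb in GFP+.

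The flank upstream of Lmo2 held peaks of both kinds. Between 56.3 and 61.7 kb upstream, a group of shared peaks had ranks of 86.9, 78.3, 48.3 and 35.9 in GFP-, where the middle pair lay under 1 GFP+ peak, and of 85.6, 85.8 and 58.7 in GFP+. A peak at 55.6 kb upstream was found only in GFP+, with rank 23.1. In contrast, the peak 30.2 kb upstream was found only in GFP-, with rank 87.1 and 1009 bp, as was one 26.4 kb upstream with rank 69.6 and 536 bp. The former was the highest-ranked peak of any member found in only 1 of the lists. At least 4 peaks found only in GFP- were assigned to 8.32% of protein-coding genes. The 200 bp around the summit 30.2 kb upstream, chr2:103927647-103927846 (GRCm38, + strand), are shown as this exception among the vascular members, and held none of the GATA, E-box, ETS or RUNX words searched.
Lmo2 -30.2 kb, GFP- only: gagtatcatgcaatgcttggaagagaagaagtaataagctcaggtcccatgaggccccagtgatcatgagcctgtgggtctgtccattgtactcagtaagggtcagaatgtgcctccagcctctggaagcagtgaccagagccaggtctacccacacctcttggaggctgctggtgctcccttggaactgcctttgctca

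An E-box and GATA pair stood in 2 regions of Lmo2. The pair in the intron, 4.70 kb from the start at chr2:103962686-103962704 on the - strand, lay within the peaks of both lists. That upstream of the gene, 27.1 kb from the start at chr2:103930909-103930927 on the - strand, lay within the GFP+ peak (rank 22.7) but outside the GFP- peak that overlapped it (rank 30.1). The window around the intronic GFP+ summit, chr2:103962667-103962866 (GRCm38, + strand), is shown with the pair in capitals, in which GATA reads as TATC and precedes the E-box. The flank peaks of Lmo2 nearer to other genes were 5 in GFP-, with 0 found only there, and 6 in GFP+, with 1 found only there.
Lmo2 +4.78 kb, shared: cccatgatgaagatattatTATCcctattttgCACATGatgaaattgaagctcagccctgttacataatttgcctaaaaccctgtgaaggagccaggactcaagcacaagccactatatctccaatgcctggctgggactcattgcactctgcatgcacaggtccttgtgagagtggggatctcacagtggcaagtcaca

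Runx1 (chr16:92601466-92826149, - strand) has a distal and a proximal promoter, and differed from Tal1, Lyl1, Gata2 and Hhex. With Lmo2 it shared a start rank that was not higher in GFP+, fewer GFP+ than GFP- peaks, and peaks found only in GFP-. Its 3 distal starts, at 0 to 0.371 kb, lay at a peak of 272 bp found only in GFP-, with rank 4.19, near the bottom of that list. The proximal promoter, 129 kb into the gene, had rank 94.0 and 2053 bp in GFP- and rank 90.1 and 1800 bp in GFP+. The starts at 130 and 131 kb had no peak. Thus 5 of 7 starts lay at a GFP- peak and 2 at a GFP+ peak.

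Of the other Runx1 peaks, 4 were shared. Those in introns had ranks in GFP- and GFP+ of 79.5 and 78.7 at 214 kb, 81.4 and 61.4 at 194 kb, and 37.7 and 34.3 at 189 kb, and the one 92.2 kb upstream had ranks of 55.7 and 49.7. All 5 shared peaks, the proximal promoter included, ranked lower in GFP+, by 0.845 to 19.9 points. A lower rank was also usual over all shared GFP+ peaks, of which 34.0% ranked higher in GFP+. The median difference was -3.89 points for Runx1 and -2.16 for all shared peaks. The 6 peaks found only in GFP- were low in that list, with ranks of 4.19 to 34.0, and lay within the gene or 2.05, 41.4 and 65.8 kb upstream. At least 6 such peaks were assigned to 4.39% of protein-coding genes. The window of the highest, chr16:92867449-92867648 (GRCm38, - strand), is shown because it held a GATA, an E-box, an ETS and a RUNX word, in capitals.
Runx1 -41.4 kb, GFP- only: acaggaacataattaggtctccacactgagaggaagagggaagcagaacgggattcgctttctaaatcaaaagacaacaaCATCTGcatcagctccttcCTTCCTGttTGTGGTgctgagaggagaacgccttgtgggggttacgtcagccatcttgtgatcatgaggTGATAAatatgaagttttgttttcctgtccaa
Beside these values, the start of Ptprc, which is expressed in nearly all leukocytes, had no peak in either list, and it had 3 assigned peaks in GFP- and 2 in GFP+. The flank peaks of Runx1 nearer to Clic6 were 3 in GFP-, of which 1 was found only there, and 2 in GFP+, both shared.

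Gata1 (chrX:7959260-7978071, - strand) had no peak at any of its 3 starts, none within the gene and none assigned in its flanks, in either list. The 6 GFP- and 6 GFP+ peaks of its 100 kb flanks were all shared and all nearer to other genes. The closest stood 30.1 kb from the Gata1 start at Hdac6, with rank 94.1 in GFP- and 91.6 in GFP+. The lists hold only peaks with an area of at least 200, so that weaker signal at Gata1 could not be seen. Among blood regulators and erythroid and megakaryocyte markers, Klf1, Gfi1b, Hbb-bt, Gp9 and Gp1ba likewise had no start peak. Others had a start peak in both lists, among them Epor, the erythropoietin receptor (62.9 in GFP- and 60.7 in GFP+). Itga2b (97.3 and 93.3), Pf4 (61.4 and 63.0) and Nfe2 (68.6 and 76.4) did so too.

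The vascular members were then compared with Gata1 and Runx1 over all their peaks. Gata1 had no assigned peak, so that Runx1 alone gives the values on that side. Of 29 GFP+ peaks of the vascular members, 11 were found only in GFP+, or 37.9% (Wilson 95% interval 22.7 to 56.0), against 13.4% of all GFP+ peaks. Of the 5 GFP+ peaks of Runx1, 0 were (0 to 43.4%). In the other direction, 4 of 24 GFP- peaks of the vascular members, all of them from Lmo2, were found only in GFP-, or 16.7% (6.68 to 35.9), against 30.3% of all GFP- peaks, and 6 of 11 GFP- peaks of Runx1 were, or 54.5% (28.0 to 78.7). The intervals cover counting error only, and peaks of 1 gene are not independent of each other.

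The sizes of these shares depended on what was counted. Among peaks at or above the median area of their list, 4 of 18 vascular GFP+ peaks (22.2%) were found only in GFP+, against 2.97% of all such GFP+ peaks, and 2 of 13 vascular GFP- peaks (15.4%) were found only in GFP-, against 13.6%. The Runx1 share rested on low-ranked peaks: of its 4 GFP- peaks at or above the median area, 0 were found only in GFP-. When overlap had to cover 50% of both peaks, 17 of 29 vascular GFP+ peaks (58.6%) counted as found only there, against 26.3% of all GFP+ peaks, and 12 of 24 vascular GFP- peaks (50%) did, against 39.3% of all GFP- peaks, so that the vascular GFP- share then lay above that of its list and not below it. With every peak of the 100 kb flanks counted, whichever gene was nearest, 26 of 97 vascular GFP+ peaks (26.8%) and 7 of 20 Runx1 and Gata1 GFP- peaks (35.0%) were found only in their list, the latter close to the 30.3% of all GFP- peaks. With flank peaks given to the nearest of all annotated genes, noncoding ones included, 0 of 13 vascular GFP- peaks were found only in GFP-, since the upstream peaks of Lmo2 then belonged to another gene.

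Among shared peaks, those of the vascular members stood apart from all shared peaks, whereas the median of Runx1 lay near that of all shared peaks. Of the 18 shared GFP+ peaks of the vascular members, 15 ranked higher in GFP+ (83.3%) and 6 did so by over 20 points (33.3%), against 34.0% and 4.87% of all 56278 shared GFP+ peaks. Their median difference was 14.2 points, from -7.46 to 64.4, where that of all shared peaks was -2.16. By gene, the median was 23.4 points for Tal1, 10.6 for Lyl1, 7.49 for Lmo2, 15.2 for Gata2 and 12.1 for Hhex, and -3.89 for Runx1. None of the members' shared peaks ranked over 20 points lower in GFP+. These counts rest on the area, which is summed along the peak. Of the 15 vascular peaks higher in GFP+, only 2 upstream of Lmo2 ranked lower there by the p-value at the summit. These were the peak 56.3 kb upstream (37.1 in GFP- and 35.5 in GFP+) and that 58.0 kb upstream (79.3 and 74.9). The median ratio of lengths, GFP+ to GFP-, was 1.24 for the vascular peaks, 0.927 for all shared peaks and 0.847 for Runx1. Among the vascular members it was high in Tal1 (2.15) and Gata2 (2.23) and near equality in Lyl1 (0.994), Lmo2 (1.00) and Hhex (1.09).

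**Figure D4:**
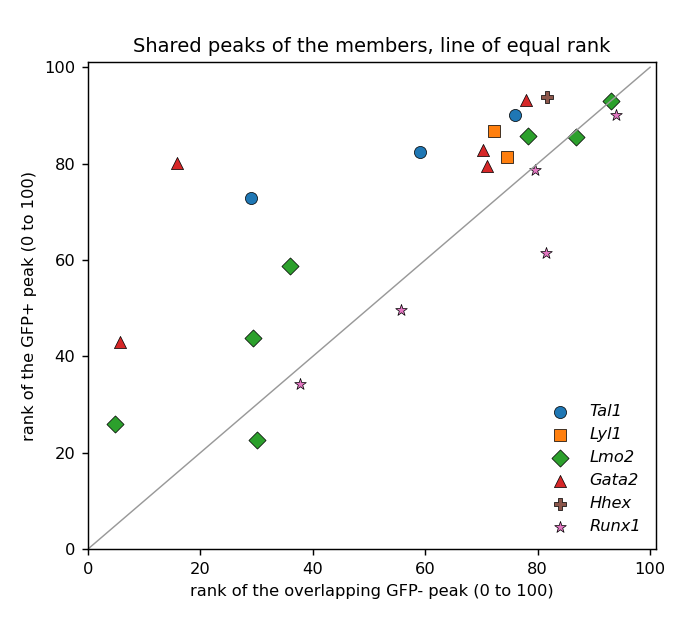
Rank of each shared GFP+ peak of the members (y axis, 0 to 100) against the rank of the highest GFP- peak that overlaps it (x axis, 0 to 100), with a symbol per gene and the line of equal rank. Peaks of Tal1, Lyl1, Gata2 and Hhex lie above the line, the point of Gata2 farthest from it being its intronic peak (15.8 in GFP- and 80.1 in GFP+), and the 5 peaks of Runx1 lie below it.

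Sequence words of the factors themselves were counted in a window of 200 bp centred on each summit, on either strand. GATA words were AGATAA or TGATAA, E-box words were CATCTG or CAGCTG, ETS words were CAGGAAG or CCGGAAG, and the RUNX word was TGTGGT. The pair bound by the complex of Tal1, Lmo2 and a GATA factor was searched as CANNTG with GATA following after 7 to 9 bases, and can overlap the single GATA and E-box words. In the 29 vascular GFP+ peaks, GATA was found in 3 (10.3%), the E-box in 8 (27.6%), ETS in 8 (27.6%) and RUNX in 2 (6.90%). Over all GFP+ peaks these shares were 14.5%, 30.8%, 16.9% and 12.7%, each within the Wilson interval of the vascular share, so that at this number of peaks no difference could be seen. The pair was found in 2 of 29 (6.90%, 1.91 to 22.0) against 1.20% of all GFP+ peaks, and in 2 of 24 vascular GFP- peaks (8.33%, 2.32 to 25.8) against 1.25% of all GFP- peaks. These few matches are the Lmo2 and Gata2 sites described above, and the intronic Lmo2 site counts in both lists.

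Among the 11 vascular peaks found only in GFP+, 4 held an ETS word (36.4%, 15.2 to 64.6) and 0 a GATA word (0 to 25.9%). All peaks found only in GFP+ held them in 24.3% and 17.9%. Both values lie within these intervals, so that no difference could be seen here either. In Runx1, the E-box was found in 7 of 11 GFP- peaks (63.6%, 35.4 to 84.8) and 4 of 5 GFP+ peaks, against 35.2% of all GFP- peaks and 30.8% of all GFP+ peaks, and the 4 GFP+ peaks overlap GFP- peaks that hold it too. A match is a description of the letters and not of binding.

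The genes that work with the members were described in the same way. Of all protein-coding genes, 61.8% had a start peak in GFP- and 59.8% in GFP+. Among those with one in either list, the median difference was -0.814 points and 3.49% ranked over 10 points higher in GFP+. Their share over 20 points apart was not counted. All 11 complex partners (the E proteins Tcf3, Tcf4 and Tcf12, the LIM binders Ldb1 and Ldb2, Lmo4, Ssbp2 and Ssbp3, the RUNX partner Cbfb, the GATA cofactor Zfpm1 and the corepressor Cbfa2t3) had a start peak in both lists, with 0 over 20 points apart and a median difference of -1.32. Ldb1, for example, ranked 99.1 in GFP- and 97.5 in GFP+, and Tcf3 97.9 and 98.3. Ldb2 had similar start ranks (65.4 and 61.5) but 8 of its 13 GFP+ peaks were found only in GFP+, against 13.4% of all GFP+ peaks. Among the other partners this ranged from 0 of 5 for Ldb1 to 4 of 11 for Zfpm1.

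Of 7 other vascular regulators, 4 had a start peak in GFP- and 6 in GFP+, and 3 ranked over 20 points higher in GFP+. The ETS factor Erg (no start peak in GFP-, rank 57.5 in GFP+), Sox17 (none and 91.3) and Sox18 (21.6 and 79.7) were these 3. Erg and Sox17 thus count as rank 0 in GFP-. None of the members ranked over 20 points higher, but the 6 with a start peak had one in both lists. Fli1, another ETS factor, differed by 7.03 points (88.1 and 95.1), and Etv2, which acts in the embryo, had no start peak in either list.

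Of the 9 paralogs of the members, 8 had a start peak in both lists, with a median difference over these 8 of -7.57 points, with Tal2 (57.0 in GFP- and 10.4 in GFP+) and Gata5 (34.6 and 5.89) over 20 points lower in GFP+ and 0 over 20 points higher. Gata4 and Gata6, the GATA factors of the heart muscle, ranked 99.6 and 99.8 in GFP- and 94.3 and 99.7 in GFP+. Among the other RUNX genes, Runx2 ranked 84.2 and 70.6 and Runx3 44.7 and 57.7.

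Of 10 blood regulators, 6 had a start peak in GFP- and 7 in GFP+, with a median difference of -0.690. These values lie near those of all protein-coding genes (61.8%, 59.8% and -0.814). Spi1 (PU.1, the myeloid and B cell factor), Klf1 and Gfi1b had no start peak in either list, and Gfi1 had one only in GFP+ (rank 35.1). Among 11 known targets of the members, 9 had a start peak in GFP- and 10 in GFP+. Cdh5 (18.0 in GFP- and 85.3 in GFP+), Tie1 (48.3 and 87.9) and Emcn (none and 61.7) ranked over 20 points higher in GFP+, and Tek (81.1 and 54.1) and Angpt2 (44.0 and 14.4) lower. Kdr, the VEGF receptor, ranked 74.3 and 90.0, and 17 of its 28 GFP+ peaks were found only in GFP+, against 13.4% of all GFP+ peaks. Among the other targets with GFP+ peaks this ranged from 0 of 2 for Epor to 5 of 7 for Emcn. Cdh5, Tie1, Emcn, Tek and Kdr are also in the list of endothelial markers, and the Cdh5 promoter drives the Cre that defines the sort.

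**Figure D5:**
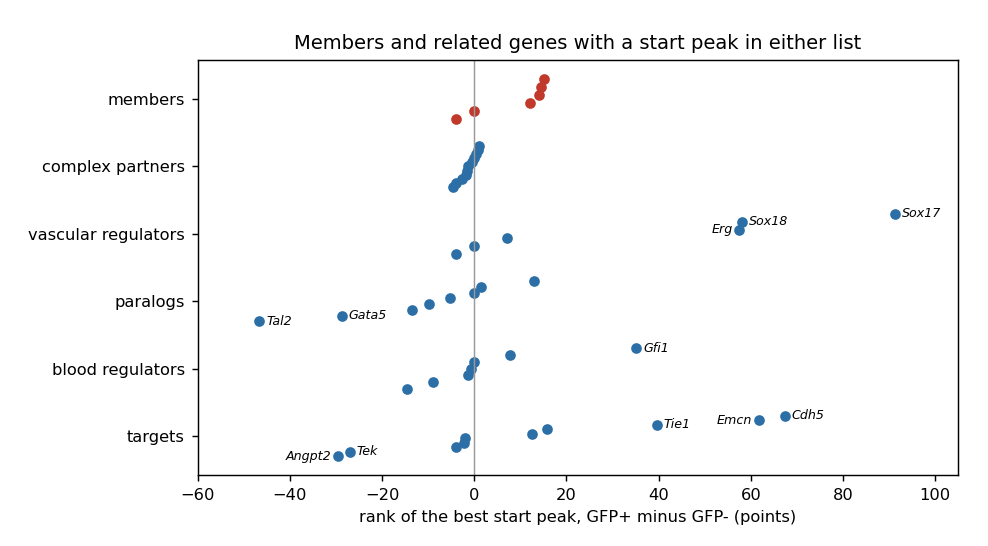
Difference in rank of the best start peak, GFP+ minus GFP- (x axis, points, a gene without a start peak in a list counting as rank 0 there), for the members (red) and the lists of related genes (blue), genes with a start peak in neither list left out. Genes over 25 points apart are named: the members lie between -3.89 and 15.2, complex partners lie around 0, and Sox17, Sox18 and Erg stand at the right.

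Finally, each member was matched to the gene most like it among these 48 related genes, by the Euclidean distance over 4 values (the best start rank in each list, and the percentile of its number of assigned peaks among protein-coding genes in each list). Gata2 was nearest to Kdr, at a distance of 12.5, with start ranks of 78.0 and 93.2 beside 74.3 and 90.0. Lmo2 and Runx1 were both nearest to the E protein gene Tcf12, at 6.32 and 10.1, Tal1 and Lyl1 both to Nfe2, at 19.5 and 23.8, and Hhex to Itga2b, at 24.2. Gata1 was at distance 0 from both Etv2 and Gp1ba, none of the 3 having an assigned peak. With 4 values per gene, the match describes these lists only.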

How the data were processed

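ATAC-Seq was performed on GFP+ and GFP- heart nuclei, 2 samples of each, grouped by their labels. The authors trimmed reads with fastp, aligned them to mm10 with bowtie2, filtered them with samtools, removed duplicates with Picard, downsampled, and ran Genrich in ATAC-Seq mode on the replicates of a population jointly to obtain its peaks. The deposited signal of a peak is its area, the deposited -log10 p-value belongs to the summit, and the score the authors deposited is a capped area per bp that was not used. Summit offsets were also deposited. Depth per sample is not analysed here, and areas were not scaled between the lists, hence the use of ranks.

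Peaks were read against GENCODE M21 on chromosomes 1 to 19 and X, and sequence came from the RefSeq copy of GRCm38, with Python 3.11.15, pandas 2.3.3, numpy 2.4.6 and pysam 0.24.0. Figures were drawn with matplotlib 3.10.9. Steps were tested on simulated peaks. All 7 members are named, together with fixed lists of related and marker genes, every start peak, and for each member the highest-ranked peak found in only 1 list; further peaks were named after their values were seen. A marker gene and a sequence window are not reported here. The members and lists were chosen with earlier results of these data known. Alternatives changed the start window, starts, ranking, overlap, peak threshold, flank, assignment and word window.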

Additional observations from a re-analysis of the deposited data

How the results depend on the processing

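No paired analysis was possible because each population has 1 list made from both replicates together, and for the same reason no replicate could be left out. Of the alternative values of the main counts, shares and medians, 41 stayed close to the reported value (a count within 1.5 times, a share within its 95% interval, a median equal as printed) and 9 did not. The intervals of the shares are wide at these numbers of peaks, so that a change from 54.5% to 35.0% still counted as close. With the 5′ end of each gene as its only start, 5 members had a GFP- and 4 a GFP+ start peak. The median start rank difference of the vascular members, 14.0 points, was 12.1 with a window of 1000 bp on either side, 12.1 with the 5′ end of each gene only, 10.6 with ranks by summit p-value and 12.5 with ranks by area per bp. The best start peak of Gata2 ranked lower in GFP+ by area per bp (-19.6), and its GFP+ peak is 3676 bp long against 1078 bp in GFP-. The other members with a higher start rank in GFP+ kept that direction, from 10.6 to 14.0 points for Tal1, 7.0 to 46.6 for Lyl1 and 12.1 to 43.8 for Hhex, and Runx1 stayed lower in GFP+, from -11.0 to -3.33.

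The share of vascular GFP+ peaks found only in GFP+ was 58.6% when overlap had to cover 50% of both peaks (all GFP+ peaks 26.3%) and 22.2% among peaks at or above the median area (2.97%). The share of vascular GFP- peaks found only in GFP- was 50% under the stricter overlap (all GFP- peaks 39.3%) and 0% with the nearest of all annotated genes. That of Runx1 was 0% among peaks at or above the median area (13.6%), and 35.0% with every flank peak of Runx1 and Gata1 counted. The cause was not tested. The lists give no read depth, so that regions under the area threshold of 200 could not be described.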
